A study of Homo sapiens with 6 samples.

Results

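The genes described are 9 regulators of alternative splicing, namely the muscleblind-like genes MBNL1, MBNL2 and MBNL3, CELF1 and CELF2, RBFOX2, QKI, and the polypyrimidine tract binding genes PTBP1 and PTBP2. They were taken by name, as all probesets annotated to them alone, which gave 9 probesets, 1 per gene, of 32321 probesets and 18404 genes in all. The levels came from 6 Affymetrix arrays, 3 of a HEK293 Flp-In line in which FLAG-HA-tagged TRIM71 (FHA-TRIM71) is constitutively overexpressed and 3 of the parental HEK293 Flp-In line, labelled wild-type. HEK293 is an established line of human embryonic kidney origin, and Flp-In cells carry a site for placing a transgene. Both groups were grown in DMEM with 2 mM glutamine and 10% FCS. The growth protocol, which all samples share, names 50 ug/ml hygromycin B for keeping TRIM71-expressing cells and does not say whether parental cells received it. Transgene, any difference in drug and other differences between the lines cannot be told apart. Whether the TRIM71 line came from 1 clone is not stated in the labels, nor is the promoter of the transgene. The series states triplicates without naming separate cultures, so the p-values rest on a spread that may be technical only.

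MBNL proteins bind RNA through CCCH zinc fingers and promote or repress the use of alternative exons, depending on where they bind. They are known from myotonic dystrophy, in which expanded repeat RNA sequesters them, and from the switch of splicing patterns during differentiation. CELF proteins, which bind GU-rich RNA, act against MBNL proteins on many of the same exons in heart and muscle. TRIM71 is an RNA-binding repressor of mRNAs, and MBNL1 and MBNL2 are among its reported targets. They were included with that report known, so their direction is not independent evidence. The comparison asks which mRNAs of these splicing regulators were higher or lower in cells that overexpress TRIM71.

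TRIM71 mRNA checked the labels. It measured 10.63, 10.86 and 10.72 in the TRIM71 arrays, against 7.23, 7.54 and 7.44 in the parental arrays, on the log2 expression scale used for all levels here (two-sided exact permutation p = 0.1, the smallest that 3 arrays against 3 allow). It was 10.1-fold higher in the TRIM71 line (log2 fold change 3.33, limma adjusted p = 6.75e-05). Arrays of one line correlated at 0.996 to 0.997 and arrays of different lines at 0.991 to 0.994. Of 8 markers of HEK293 cells, 7 lay above the median of all probesets in both groups, NEFM being the exception. NEFL, INA and KRT8 were lower in the TRIM71 line and VIM and CDH2 higher. None of the 6 fibroblast, 5 leukocyte or 4 endothelial markers measured passed the test. The fibroblast markers averaged 5.54 to 5.68 in the TRIM71 arrays and 5.61 to 5.74 in the parental arrays, and the leukocyte markers 5.60 to 5.69 and 5.63 to 5.72. PTPRC, the dimmest of the 5 leukocyte markers, stood at 3.50 in the TRIM71 line and 3.53 in the parental line. In both groups 1 leukocyte and 1 fibroblast marker lay above the median of all probesets, and 0 endothelial markers did. These were CD68, at 8.08 in the TRIM71 line and 8.11 in the parental line, and COL1A1, at 7.47 and 7.66. Of 6 skeletal muscle markers ACTA1 was higher (log2 fold change 0.21) and 5 did not pass, and the 6 ranged from −0.21 to 0.34. Of 5 neuronal markers RBFOX3 was lower, at 1 of its 3 probesets only, and 4 did not pass. The neuronal log2 fold changes ranged from −1.07 to 0.17. In both groups 2 muscle markers lay above the median of all probesets. For neuronal markers it was 1 in the TRIM71 line and 2 in the parental line. In RNA from whole cultures, fewer cells of a kind and less RNA per cell cannot be told apart.

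Of the 9 regulators, 4 were lower in the TRIM71 line, 1 was higher and 4 did not pass the test, which was limma's moderated test at a Benjamini-Hochberg adjusted p under 0.05 over all probesets. Among all 18404 genes, 12.2% were lower and 10.0% higher by the same rule. These shares rested on 2244 and 1848 genes, which became 1336 and 1121 without TRIM71 replicate 1, and 1365 and 994 without parental replicate 2. Without TRIM71 replicate 2 and without parental replicate 3 the number higher was 979 and 1185. The calls on the 9 regulators were the same with any 1 array left out. For 8 of the 9 regulators the TRIM71 and parental arrays did not overlap, as was the case for 43.6% of all genes. The median log2 fold change was −0.21 over the 9 regulators, which is the value of CELF2, and −0.01 over all genes. The 9 were chosen with earlier results of these data known, so neither their counts nor their median is independent evidence. The plots of levels by array and of changes with their intervals show each regulator in turn.

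**Figure D1:**
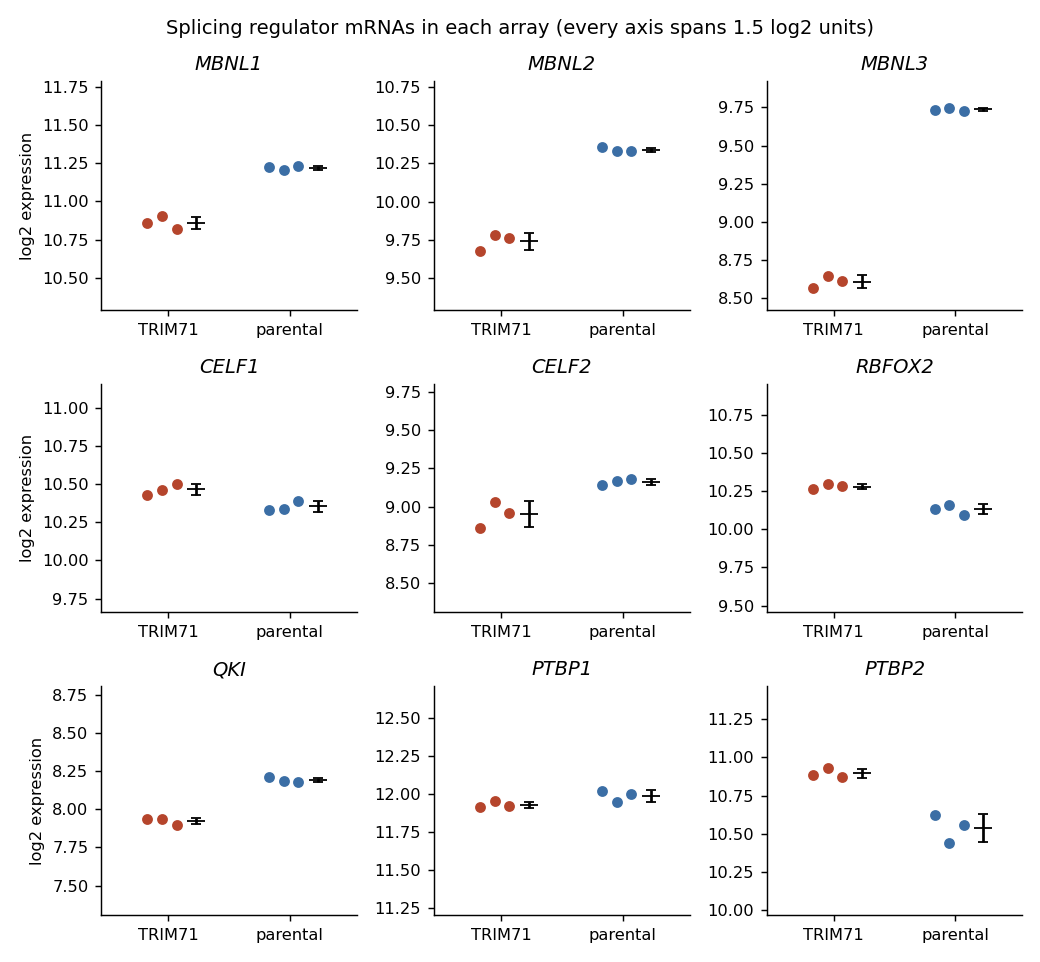
Log2 expression of the 9 splicing regulators in each array, with TRIM71 arrays on the left of each panel and parental arrays on the right. Points are arrays, the bar beside them is the mean ± SD (n = 3), and every axis spans 1.5 log2 units. The groups overlap for PTBP1 and are apart for the other 8, most widely for MBNL3, where the nearest arrays lie 1.08 apart.

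All 3 MBNL mRNAs fell in the TRIM71 line, and MBNL3 had the largest change of the 9 regulators. MBNL3, known in mouse from placenta and muscle precursor cells, measured 8.57, 8.65 and 8.61 in the TRIM71 arrays, against 9.74, 9.75 and 9.73 in the parental arrays. The highest TRIM71 array was thus more than 1 log2 unit under the lowest parental array. The fall was 2.18-fold, to 45.8% of the parental level (log2 fold change −1.13, SE 0.05, 95% interval −1.24 to −1.02, limma adjusted p = 0.000128). Of the 18404 genes, 105 had a lower log2 fold change.

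MBNL2, a splicing regulator with a large part in brain, measured 9.68, 9.78 and 9.76 in the TRIM71 arrays, against 10.35, 10.33 and 10.33 in the parental arrays. The groups were 0.55 apart at their nearest arrays. MBNL2 mRNA stood at 66.0% of the parental level (log2 fold change −0.60, SE 0.05, 95% interval −0.72 to −0.48, limma adjusted p = 0.000946), and 475 genes had a lower log2 fold change.

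MBNL1, the member most studied in muscle, measured 10.86, 10.90 and 10.82 in the TRIM71 arrays, against 11.22, 11.20 and 11.23 in the parental arrays. The groups were 0.30 apart at their nearest arrays. MBNL1 mRNA stood at 77.9% of the parental level (log2 fold change −0.36, SE 0.05, 95% interval −0.47 to −0.25, limma adjusted p = 0.00426), and 1220 genes had a lower log2 fold change. Tested against a fold of 1.2 instead of no change, MBNL1 did not pass (adjusted p = 0.552), while MBNL2 and MBNL3 did.

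The family members were also set against each other. Within each array, the log2 value of MBNL3 minus that of MBNL1 was −2.29, −2.25 and −2.20 in the TRIM71 line, against −1.49, −1.45 and −1.51 in the parental line. The level of such a difference carries the affinities of 2 different probesets, so only its change between the lines is read. That change was −0.77 for MBNL3 minus MBNL1, −0.53 for MBNL3 minus MBNL2 and −0.24 for MBNL2 minus MBNL1, and the groups did not overlap for any of the 3 pairs. Each had a two-sided exact permutation p of 0.1, also 0.1 after adjustment over the 6 pairs compared, which is the smallest possible with 3 arrays against 3. This test therefore could not bring these differences past the threshold.

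Why the 3 MBNL mRNAs fell was not tested. The bases before the first start site of each gene in the RefSeq windows used (GRCh38.p14) are shown 5′ to 3′ on the gene's strand. They lie at chr3:152268679-152268928 on the plus strand for MBNL1, chr13:97141584-97141833 on the plus strand for MBNL2 and chrX:132490036-132490285 on the minus strand for MBNL3. Each run is 250 bases and ends at the base before the start. Capitals mark matches on either strand to the GC box GGGCGG, the CCAAT box CCAAT and the TATA box TATAAA, searched as these letters.

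MBNL1: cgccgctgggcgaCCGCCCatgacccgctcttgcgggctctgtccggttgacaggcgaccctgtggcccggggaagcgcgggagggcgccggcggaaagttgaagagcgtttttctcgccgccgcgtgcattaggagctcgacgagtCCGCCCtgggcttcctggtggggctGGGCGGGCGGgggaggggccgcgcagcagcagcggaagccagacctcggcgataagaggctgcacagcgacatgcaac
MBNL2: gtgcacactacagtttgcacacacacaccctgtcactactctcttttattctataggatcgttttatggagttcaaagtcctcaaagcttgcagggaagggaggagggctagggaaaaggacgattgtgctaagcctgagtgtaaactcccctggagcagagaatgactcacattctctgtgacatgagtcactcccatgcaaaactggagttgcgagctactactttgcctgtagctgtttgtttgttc
MBNL3: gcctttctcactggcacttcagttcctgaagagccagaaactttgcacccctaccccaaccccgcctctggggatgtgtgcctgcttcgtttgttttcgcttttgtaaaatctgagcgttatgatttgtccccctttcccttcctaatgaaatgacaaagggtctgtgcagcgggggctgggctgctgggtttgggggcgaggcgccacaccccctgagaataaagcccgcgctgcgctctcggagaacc

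The MBNL1 window held 4 GC boxes, 2 of which overlap, and neither other motif, at a GC content of 70.8%. The MBNL2 and MBNL3 windows shown held none of the 3 motifs, at 46.8% and 56.4%. Of 35116 RefSeq windows of this length, 42.6% held a GC box, 32.0% a CCAAT box and 10.7% a TATA box, and the median GC content was 58.0%. The RefSeq windows used held 3 such starts for MBNL1, 2 for MBNL2 and 4 for MBNL3, and the matches depended on the start. The other MBNL1 windows held none of the motifs, and the other MBNL2 window held 2 CCAAT boxes. Of the other MBNL3 windows, 1 held a GC box and a TATA box, 1 a TATA box and 1 a CCAAT box. A window was present for 7 of the 9 regulators and absent for RBFOX2 and QKI, so the set of windows was incomplete. The arrays measured neither promoter activity nor the start site in use.

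Neither CELF gene passed the test. CELF1, which binds GU-rich elements and also speeds mRNA decay, measured 10.43, 10.46 and 10.50 in the TRIM71 arrays, against 10.33, 10.34 and 10.39 in the parental arrays (log2 fold change 0.11, 95% interval −0.0021 to 0.22, limma adjusted p = 0.176). The nearest arrays of the groups differed by 0.04. CELF2, its relative in brain, heart and T cells, measured 8.86, 9.03 and 8.96 in the TRIM71 arrays, against 9.14, 9.17 and 9.18 in the parental arrays. All 3 TRIM71 arrays lay under the parental ones, but they were spread more widely (SD 0.08 against 0.02). The log2 fold change of CELF2 was −0.21 (SE 0.06, 95% interval −0.35 to −0.07), with a limma adjusted p of 0.0525 that fell under the threshold in 8 of 19 alternatives, down to 0.0176.

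CELF2 minus CELF1 was −1.57, −1.43 and −1.54 within the TRIM71 arrays, against −1.19, −1.17 and −1.21 within the parental arrays, a change of −0.32 (exact permutation p = 0.1). For CELF1 minus MBNL1, a pair of antagonists on shared exons, the values were −0.43, −0.44 and −0.32 in the TRIM71 arrays, against −0.89, −0.87 and −0.84 in the parental arrays. This difference was thus 0.47 higher in the TRIM71 line, without overlap between the groups (exact permutation p = 0.1). Levels of the exons that these proteins regulate were not measured by 1 value per gene.

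**Figure D2:**
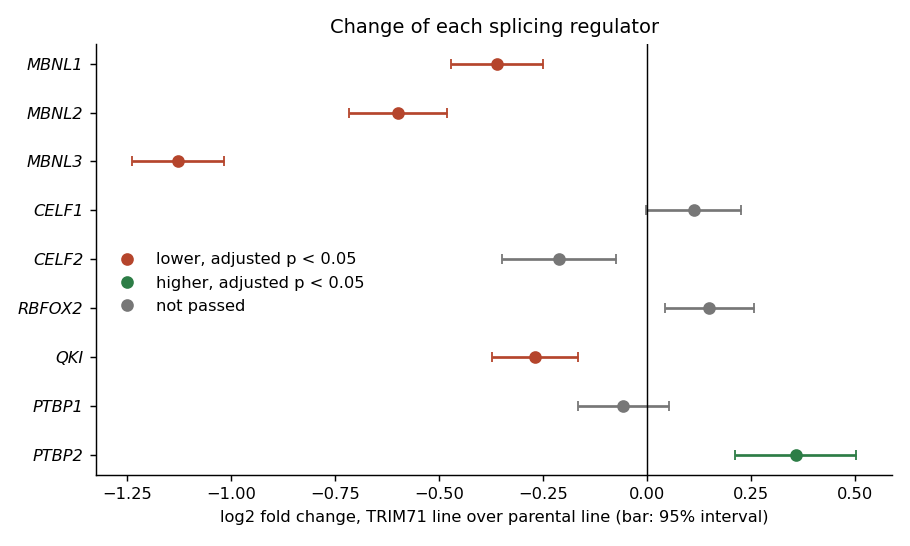
Log2 fold change of each splicing regulator, TRIM71 line over parental line, with 95% intervals from the limma fit (n = 3 arrays per group). The 3 MBNL genes and QKI lie left of 0, from −1.13 for MBNL3 to −0.27 for QKI, PTBP2 lies right of it at 0.36, and the 4 grey regulators did not pass the test.

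QKI, a KH-domain protein of the STAR family that is known for splicing and mRNA stability in myelinating glia and muscle, was lower in the TRIM71 line. It measured 7.94, 7.94 and 7.90 in the TRIM71 arrays, against 8.21, 8.19 and 8.18 in the parental arrays. The groups were 0.25 apart and the spread within each was small (SD 0.02 in both). QKI mRNA stood at 82.9% of the parental level (log2 fold change −0.27, SE 0.04, 95% interval −0.37 to −0.17, limma adjusted p = 0.00898). Against a fold of 1.2 the call ended, with an adjusted p of 1.

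RBFOX2, which binds UGCAUG elements and sets tissue-specific exon choice, measured 10.26, 10.29 and 10.28 in the TRIM71 arrays, against 10.13, 10.16 and 10.10 in the parental arrays. The groups did not overlap, but the log2 fold change of 0.15 did not pass (SE 0.04, 95% interval 0.04 to 0.26, limma adjusted p = 0.0715). It passed in 5 of 19 alternatives, with adjusted p down to 0.018.

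Of the PTB paralogues, PTBP2 rose and PTBP1 did not pass the test. PTBP1, a widely expressed repressor of exons next to pyrimidine tracts, measured 11.92, 11.95 and 11.92 in the TRIM71 arrays, against 12.02, 11.94 and 12.00 in the parental arrays. These values overlap, and the log2 fold change of −0.06 did not pass (95% interval −0.17 to 0.05, limma adjusted p = 0.482). PTBP2, the paralogue of neurons and testis, whose mRNA PTBP1 is known to hold down through exon skipping and decay, was the 1 regulator that rose. It measured 10.88, 10.93 and 10.87 in the TRIM71 arrays, against 10.62, 10.44 and 10.56 in the parental arrays. All TRIM71 arrays lay above all parental ones, by 0.25 at the nearest arrays, and PTBP2 mRNA was 1.28-fold higher (log2 fold change 0.36, SE 0.06, 95% interval 0.21 to 0.50, limma adjusted p = 0.0112).

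The parental arrays varied more in PTBP2 than in any other regulator (SD 0.09), and with 1 array left out the log2 fold change lay between 0.31, without parental replicate 2, and 0.40, without parental replicate 1. PTBP2 minus PTBP1 was −1.03, −1.02 and −1.05 within the TRIM71 arrays, against −1.39, −1.50 and −1.44 within the parental arrays. The difference between the paralogues was thus 0.41 higher in the TRIM71 line, and its values did not overlap (exact permutation p = 0.1). The PTBP2 call ended at an adjusted p under 0.01 and against a fold of 1.2 (adjusted p = 0.96).

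**Figure D3:**
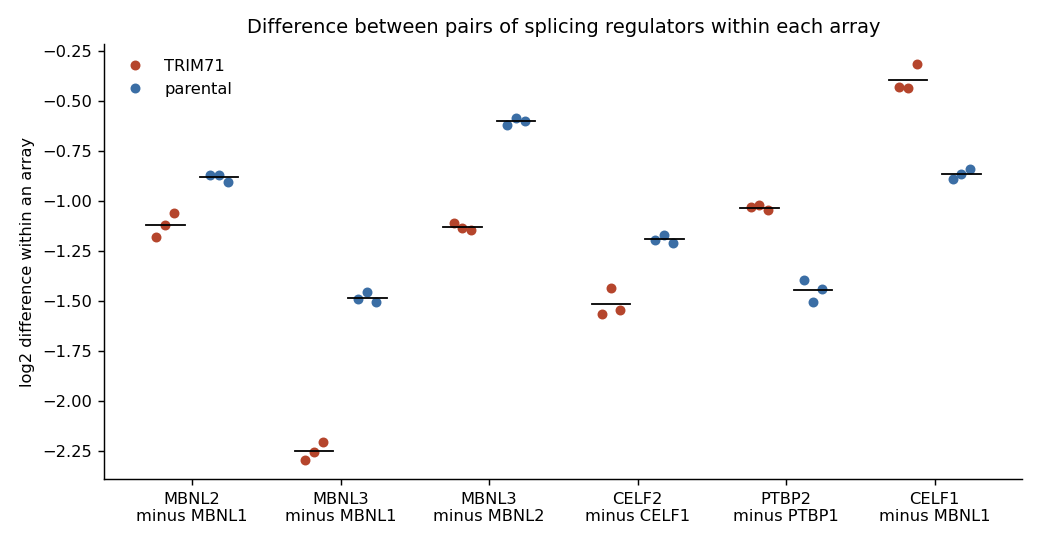
Difference in log2 expression between 2 splicing regulators within an array, for 6 pairs, with TRIM71 arrays on the left and parental arrays on the right of each pair and a line at the mean of 3 arrays. The groups are apart for every pair, from a change of −0.77 for MBNL3 minus MBNL1 to 0.47 for CELF1 minus MBNL1.

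Other members of these families and close relatives were counted next, beside 12.2% lower and 10.0% higher among all genes. Of 16 relatives, among them CELF3 to CELF6, RBFOX1, PTBP3 and the STAR and PTB-like proteins, 1 was lower, 0 were higher and 15 did not pass (median log2 fold change 0.02). The lower one was RBFOX3, the neuronal RBFOX protein, at 6.71 ± 0.07 in the TRIM71 line and 7.78 ± 0.08 in the parental line (SD, n = 3 each; log2 fold change −1.07, limma adjusted p = 0.000348). That value came from 1 of 3 RBFOX3 probesets, and the other 2 differed by −0.03 and −0.01 without passing. With the median of the 3 probesets the call ended (adjusted p = 0.903). Of the 16 relatives, 10 lay at or above the median of all probesets in the TRIM71 line and 11 in the parental line. RBFOX3 lay under that median in the TRIM71 line. Not passing says less about the dimmer relatives, since values of dim probesets understate changes.

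General splicing factors were read by list, beside 12.2% lower and 10.0% higher among all genes. Of 14 SR proteins, which bind exonic enhancers, 0 were lower and 1 was higher, SRSF4 (log2 fold change 0.31, limma adjusted p = 0.0172). Of 17 hnRNP proteins measured, 0 were lower and 1 was higher, PCBP1, which binds poly(C) (0.22, adjusted p = 0.0211). Of 8 kinases of SR proteins, 0 were lower and 1 was higher, CLK1 (0.41, adjusted p = 0.0211). CLK4 is counted by its brighter probeset, which did not pass (−0.07, adjusted p = 0.579), while its dimmer probeset was lower (−0.35, adjusted p = 0.0203). CLK4 was among the 4 kinases with the smallest adjusted p. It was kept among the named genes, though it did not pass, after its values were seen. The medians of the 3 lists were 0.02, 0.01 and 0.02. The call on SRSF4 ended without TRIM71 replicate 1 or 3 or parental replicate 2 (adjusted p up to 0.0658), and that on CLK1 without TRIM71 replicate 1 or 2 (up to 0.0788). The call on PCBP1 ended without TRIM71 replicate 1, 2 or 3 or parental replicate 1 or 2 (up to 0.0823). With the replicate number as a block in the fit, the calls on SRSF4 and PCBP1 also ended (limma adjusted p = 0.0561 and 0.0768).

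Of 23 other alternative splicing regulators measured, 1 was lower and 4 were higher (median 0.07), beside 12.2% lower and 10.0% higher among all genes. Of the 23, 17 lay at or above the median of all probesets in the TRIM71 line and 18 in the parental line. TIA1, a U-rich element binder of stress granules, was higher at 11.12 ± 0.04 in the TRIM71 line and 10.76 ± 0.03 in the parental line (SD, n = 3 each; log2 fold change 0.36, limma adjusted p = 0.00425). The neuronal paralogues NOVA1 and NOVA2 went in opposite directions, with NOVA1 higher (0.35, adjusted p = 0.00906) and NOVA2 lower (−0.32, adjusted p = 0.0294). NOVA2 stood at 6.94 in the TRIM71 line and 7.26 in the parental line, near the median of all probesets (6.94). The NOVA2 call ended without TRIM71 replicate 1 or 2 or parental replicate 1 or 2, with adjusted p up to 0.09. It also ended with the replicate block (limma adjusted p = 0.0973).

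Of 40 core spliceosome genes, 6 were lower, 2 were higher and 32 did not pass (median −0.02), beside 12.2% lower and 10.0% higher among all genes. The number lower rested on each array, with 1, 3 and 2 genes left without TRIM71 replicate 1, 2 and 3 in turn, and 3, 2 and 2 without parental replicate 1, 2 and 3. The number higher was 1 without parental replicate 2. With the replicate block, 1 was lower and 1 was higher. SNRPB, an Sm protein, was lower (log2 fold change −0.27, limma adjusted p = 0.00799), as was PLRG1, of the Prp19-associated complex (−0.36, adjusted p = 0.015). SNRPG, another Sm protein, was higher at its brighter probeset (0.49, adjusted p = 0.00881) and did not pass at its other one (0.21, adjusted p = 0.228). SF3B1, of the U2 particle, was higher (0.26, adjusted p = 0.0119). The PLRG1 call ended without TRIM71 replicate 1 (adjusted p = 0.0588) and the SF3B1 call without parental replicate 2 (0.0528). The PLRG1 call also ended with the replicate block (limma adjusted p = 0.0626).

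**Figure D4:**
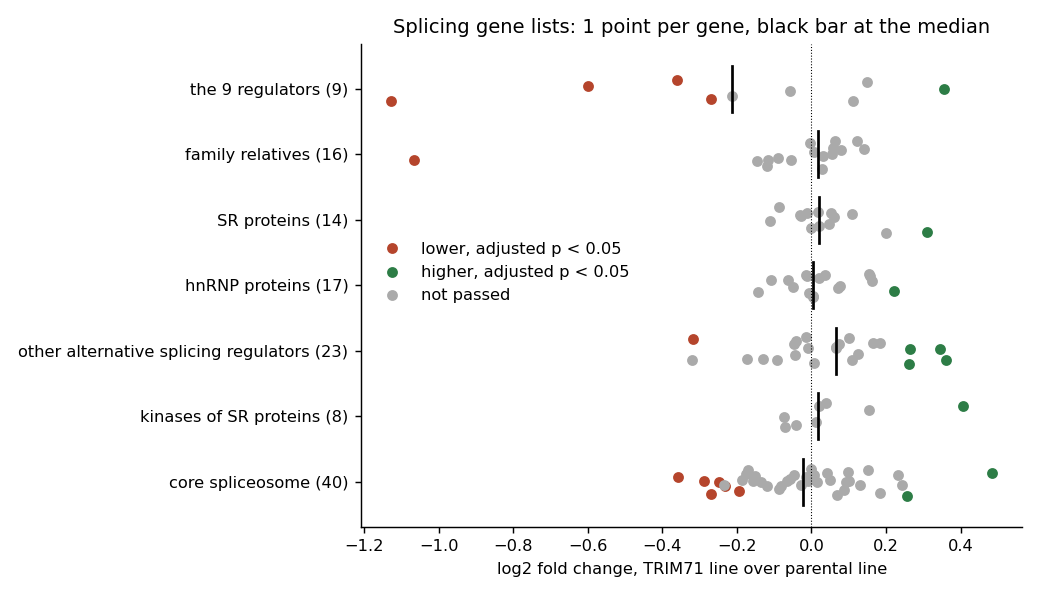
Log2 fold change, TRIM71 line over parental line, of every measured gene in 7 lists of splicing genes, with 1 point per gene and a black bar at the median (number of genes in brackets). The medians of the 6 other lists lie between −0.02 and 0.07, and that of the 9 regulators at −0.21. All lists were chosen with earlier results of these data known.

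Genes were also ranked by how near their profile over the 6 arrays, centred on the mean of the gene, lay to that of MBNL1 or MBNL2. Nearest to MBNL1 were NENF, POGLUT3, NAPA and CBFB, at Euclidean distances of 0.03 to 0.04 on the log2 scale, with log2 fold changes from −0.37 for CBFB to −0.33 for NAPA. Nearest to MBNL2 were SFXN2, DENND11, TRIM14 and CPEB4, at distances of 0.04 to 0.07, with log2 fold changes from −0.61 for SFXN2 to −0.56 for TRIM14 and CPEB4. With 2 conditions, such a profile is mainly the change between the lines and its spread.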

How the data were processed

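RNA was extracted with Trizol and cleaned on columns, and 100 ng was amplified to biotin-labelled sense-strand cDNA, per the labels' protocols. The deposited log2 values, 1 column per array, were made by the authors with RMA, and affy is named too, per the submitters' processing notes; versions and build are not given in the sources used here. RMA sets the arrays to a common distribution, so a change in total mRNA per cell cannot be seen, and log2 values of dim probesets understate changes. Precision is limited by having 3 arrays of each line.

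Genes were named from the annotation table of the array, which gave 19158 probesets 1 symbol, 1388 several and 11775 none. Of the first, 19128 matched RefSeq by gene ID. In counts, a gene stands by its probeset with the highest mean. limma 3.58.1 in R 4.3.3 (lmFit, eBayes) was fitted to all 32321 probesets with the group as its term, and Benjamini-Hochberg adjustment ran over all of them. The fit was tested on simulated data. Single values within arrays were tested with two-sided exact permutation tests.

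The genes named were the 9 regulators, TRIM71, in each list those that passed among its 4 most significant genes (no more than 2 of either direction where both occurred), and the 4 genes nearest to MBNL1 and to MBNL2 with a mean at or above the median of all probesets. CLK4, which did not pass but was among the 4 most significant kinases, was named as well. Members, lists and tests were chosen with earlier results of these data known. Deviations of arrays with the same replicate number from their group means correlated at 0.07, −0.19 and 0.11, so the numbers were not taken as pairs.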

Additional observations from a re-analysis of the deposited data

How the results depend on the processing

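In the 19 alternatives, the log2 fold change kept its direction for all 9 regulators, ranging from −1.15 to −1.11 for MBNL3, −0.62 to −0.57 for MBNL2 and −0.38 to −0.34 for MBNL1. MBNL2 and MBNL3 passed in each. Tested against a fold of 1.2, MBNL1 (−0.36), QKI (−0.27) and PTBP2 (0.36) no longer passed, leaving 2 regulators lower and 0 higher among 471 genes lower and 232 higher. At an adjusted p under 0.01, PTBP2 (0.36) no longer passed, leaving 0 regulators higher, with 1106 genes lower and 792 higher. With the intensity trend, alone or with robust estimation, with either filter on dim probesets and with 1 probeset per gene, RBFOX2 (0.15) and CELF2 (−0.21) passed, so that 2 regulators were higher. CELF2 also passed with quantile normalization (−0.21), cyclic loess (−0.22) and array weights (−0.23). The replicate block gave 1371 genes lower and 1019 higher and changed no call on the 9 regulators (QKI adjusted p = 0.0465, PTBP2 0.0487). Leaving out 1 array gave 1336 to 1709 genes lower and 979 to 1485 higher. The 6 pair differences kept their direction in the 9 alternatives run for them, namely quantile normalization, cyclic loess, the median of the gene's probesets and each array left out. Of 19 other named genes under 19 alternatives, 42 of 361 values lost the call and none changed direction. Over the alternatives, calls in the core spliceosome list ranged from 0 to 13 lower and from 0 to 5 higher. The cause of these shifts was not tested. All 9 regulators lay above the median brightness of all probesets.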
